A study of Mus musculus with 2 samples.

Results

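The innate sensor genes examined here comprise 40 genes chosen by function: Toll-like receptors with their co-receptors, adaptors and kinases, the NOD-like and DNA sensors, the inflammasome adaptor and caspases, the IL-1 family with its receptor and antagonist, and the NF-κB inhibitors Nfkbia and Tnfaip3. They were compared between the small intestine of mice that carry an interleukin 9 (IL-9) transgene and that of wild-type mice, in work on gut permeability, mast cells and hypersensitivity to antigens taken by mouth. Of the 40 genes, 35 had a probe set (a group of short probes for a transcript) of their own name among the 18194 genes of the array. Irak4, Nod2, Ripk2, Nlrc4 and Naip1 had none and were not analysed here. A total of 27 passed the expression filter, an intensity of 78.5 in at least 1 of the pools, which is the median of all values on both arrays. The other 8, Tlr2, Tlr4, Tlr6, Tlr7, Ly96, Irak3, Aim2 and Il1a, read below it in both pools.

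Both groups were untreated BALB/c mice of 6 to 8 weeks, and each array carried total RNA from 1 pool of 3 animals. The groups were IL-9 transgenic and wild type (WT), with 1 array in each. The labels do not give the promoter that drives the transgene, the cells in which it is expressed, or the segment of the small intestine that was taken. With 1 array in each group there is no replicate check, no test and no p-value for any gene, and every value below describes those 2 pools.

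Toll-like receptors are membrane proteins that bind microbial lipids, proteins or nucleic acids and pass the signal through adaptors such as MyD88 and TRIF to kinases and then to NF-κB, a transcription factor of inflammatory genes. NOD-like receptors and AIM2 are sensors of the cytosol, and some of them assemble inflammasomes. In these complexes the adaptor ASC (Pycard) activates caspase-1, which in turn matures IL-1β and IL-18. In the gut the epithelium and the macrophages beneath it share these sensors, and inhibitors such as IκBα and A20 restrain the response to the resident bacteria.

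Intensities are the deposited values on a linear scale, and differences are log2(intensity + 1) of the transgenic pool minus that of the wild-type pool. Each gene stands by its brightest probe set, and the others serve as a check. Across probe sets, which are not independent replicates, Pearson r between the arrays was 0.994 on the log2 scale, and 95% of the 11862 genes past the filter differed by between -0.49 and 0.50. The SD of the difference between probe sets of the same gene was 0.23, a technical spread within the arrays that says nothing of the spread between mice. The 3′ to 5′ ratio of the actin control, a sign of RNA integrity, was 1.33 in transgenic tissue and 1.61 in wild type, and that of Gapdh was 1.08 and 1.22. The probe set of Il9 itself read 62.2 in transgenic tissue and 71.6 in wild type, so the labels have no check from that gene.

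Expression of the innate sensor genes differed little between the pools. Of the 27 members past the filter, 0 were higher and 0 were lower by 2-fold, where 0.607% of all genes were higher and 0.202% were lower. At 1.5-fold the counts were again 0 and 0, against 1.68% and 1.45% of all genes. At the size of these shares, a list of 27 genes would hold few or none past either fold in any case. All 27 passed the filter in both pools. The differences ran from -0.39 in Irak1 to 0.42 in Il18, with 12 members above 0 and 15 below, and their median was -0.06 against 0.01 for all genes past the filter. The median size of a difference, without its sign, was 0.16 for the members and 0.14 for all genes.

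A lower threshold was added after the values were seen, namely a difference at least as large as the SD between probe sets, which corresponds to 1.17-fold. By that threshold 3 members were higher, Tirap, Pycard and Il18, which is 11.1% of the 27 where 14.8% of all genes were higher. A total of 7 were lower, Ticam1, Irak1, Tollip, Nlrp6, Casp4, Nfkbia and Tnfaip3, which is 25.9% where 13.8% of all genes were lower. Of these, Irak1, Tollip and Tnfaip3 each also had a probe set past the filter that lay above 0, so their direction is not settled. When the probe sets of a gene were averaged in place of taking its brightest, 25 members passed the filter, 1 was higher (Il18) and 4 were lower (Ticam1, Nlrp6, Casp4 and Nfkbia), or 4% and 16%, where the shares of all genes were 12.9% and 9.85%. The excess of lower over higher members is therefore a matter of a few genes at small differences, and it carries no test.

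**Figure D1:**
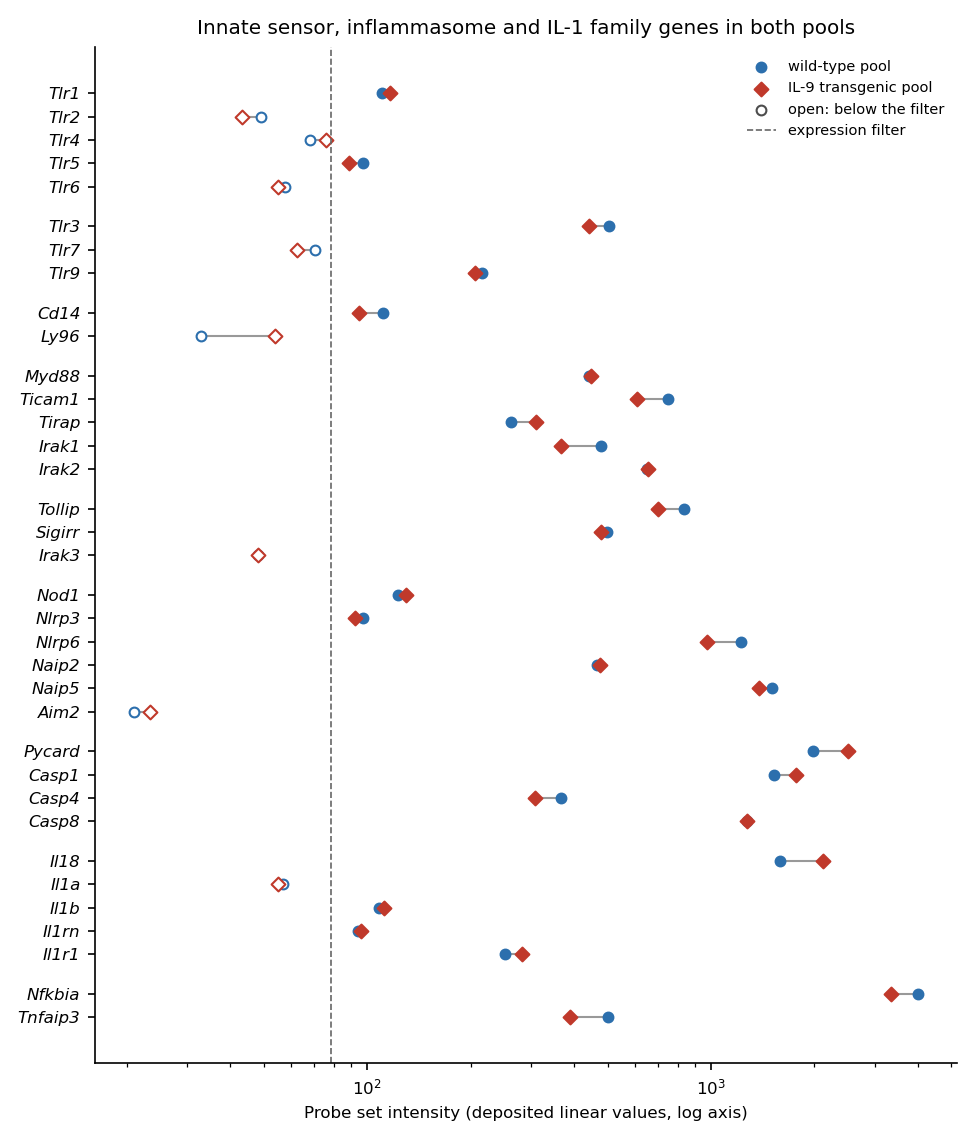
Intensity of the probe set used for each of the 35 members named on the array (horizontal log axis), in the wild-type pool (circles) and the IL-9 transgenic pool (diamonds), in order of role. Filled symbols passed the expression filter (dashed line), and the pairs of symbols lie close together for every filled gene, with the widest gap among them in Il18 (2118 against 1586).

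The Toll-like receptors of the cell surface read near or below the filter in both pools. Tlr1, which pairs with TLR2 to bind bacterial lipopeptides, read 116 in transgenic tissue and 110.0 in wild type. Tlr5, the flagellin receptor, read 88.7 and 97.0. Their differences, 0.08 and -0.13, were both smaller than the SD between probe sets. Tlr4, the receptor for lipopolysaccharide, read 75.8 in transgenic tissue and 68.2 in wild type, just under the filter. Its 4 probe sets differed by between -0.10 and 0.15 and so gave no common direction. Tlr2 read 43.3 against 49.3 and Tlr6, its other partner, 54.9 against 57.8, both below the filter.

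The receptors of the endosome detect nucleic acids. Tlr3, which binds double-stranded RNA, read 443 in transgenic tissue and 504 in wild type in a probe set that can match other transcripts, a difference of -0.18. Its other probe set read 152 against 141, a difference of 0.10, so the direction is not settled. Tlr9, the receptor for unmethylated CpG DNA, read 206 against 216, a difference of -0.07. Tlr7, a receptor for single-stranded RNA, read 62.4 against 70.5, below the filter. B cells also express Tlr7 and Tlr9, and markers of B cells were lower in the transgenic pool: 6 of 6 past the filter lay below 0, with a median of -0.65, though 3 of the 6 passed through the wild-type pool alone. Without a filter all 8 named markers lay below 0 with a median of -0.59, and the summed intensity of the 8 markers named on the array was 858 in transgenic tissue and 1421 in wild type. Without the 2 markers past 2-fold the sums were 754 and 1071. None of the 8 markers was at 0. In such bulk tissue, fewer cells of a type and less RNA per cell cannot be told apart, and the part of B cells in the values of Tlr7 and Tlr9 was not tested.

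The co-receptors of TLR4 included the widest gap of any named member, at values below the filter. Ly96 encodes MD-2, the protein that holds lipopolysaccharide on TLR4. It had a single probe set, which gave 53.9 in transgenic tissue and 32.8 in wild type, a difference of 0.70 or 1.63-fold. Both values lay below the filter, and with a pseudocount of 32 in place of 1 the difference was 0.41. Cd14, which hands lipopolysaccharide to MD-2 and marks monocytes and macrophages, read 94.7 against 111, a difference of -0.23 that stayed just within the SD between probe sets. The marker list for macrophages and monocytes, which does not hold Cd14, had a median of 0.10, with 7 of 11 markers past the filter above 0 and 4 below. Its summed intensity over 12 markers was 7121 in transgenic tissue and 7655 in wild type, and its brightest markers, Lyz2 and Csf1r, differed by -0.37 and 0.03. Lyz2 alone read 1995 against 2586, a wider gap than that of the sum, so the lower sum rests on that gene.

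Among the adaptors and kinases, Myd88 and Irak2 read nearly the same in both pools and Ticam1 read lower in the transgenic one. Myd88, the adaptor of most Toll-like receptors and of the IL-1 receptor, read 448 in transgenic tissue and 443 in wild type. Irak2, a kinase of the same complex, read 658 against 652. These are differences of 0.02 and 0.01, among the smallest of the members. Ticam1 encodes TRIF, the adaptor of TLR3 and of the endosomal TLR4 signal. It read 607 against 750.3, a difference of -0.30, and 8.68% of all genes past the filter lay as low or lower. Its only probe set can match other transcripts.

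Tirap, which bridges TLR2 and TLR4 to MyD88, read 309 in transgenic tissue and 262 in wild type, a difference of 0.24. Its other probe set read 80.2 against 76.2, a difference of 0.07, and reached the filter in the transgenic pool only. Irak1, the kinase that IRAK4 activates, had the lowest difference of the members, -0.39, from 365 against 478. That value rests on a probe set that can match other transcripts, and the 4 probe sets of Irak1 ran from -0.39 to 0.25, so no direction is given for the gene. Without probe sets of that kind Irak1 differed by 0.01.

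Of the inhibitors that act at the receptor complex, none showed a direction. Sigirr, a decoy-like member of the IL-1 receptor family that is abundant in gut epithelium, read 478 in transgenic tissue and 499 in wild type, a difference of -0.06. Tollip, which binds IRAK1 and dampens its activity, read 701 against 837 in its brighter probe set and 307 against 254 in the other. The differences, -0.26 and 0.28, are of like size and opposite sign. Irak3 (IRAK-M), the inhibitory kinase of macrophages, read 48.2 in both pools, below the filter.

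The cytosolic sensors past the filter differed by less than the SD between probe sets, apart from Nlrp6. Nod1, the sensor of a peptidoglycan fragment, read 129 in transgenic tissue and 123 in wild type. Nlrp3, the sensor of cell stress and membrane damage, read 92.3 against 96.9. Their differences were 0.07 and -0.07. Naip2 and Naip5 bind bacterial proteins, flagellin among them, and pass the signal to NLRC4. Naip2 read 474 against 467 and Naip5 read 1381 against 1508, with differences of 0.02 and -0.13. The Naip genes are close paralogs, and each was measured by a single probe set, so signal from the other copies may be part of both values. Aim2, the sensor of cytosolic DNA, read 23.3 against 21.0, below the filter.

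Nlrp6, a sensor of the intestinal epithelium that acts on goblet cell secretion and antimicrobial defence, read 976 in transgenic tissue and 1222 in wild type. It had a single probe set. The difference of -0.32 is 1.25-fold lower, and 7.70% of all genes past the filter lay as low or lower. Markers of the epithelium stood at a median of -0.11, with 7 of 9 below 0, and their summed intensity was 83327 in transgenic tissue and 89471 in wild type. The difference of Nlrp6 lay between the median of these markers and the lowest of them, Cdx2. Cdx2 differed by -0.37 in its brighter probe set but by 0.32 in the other, so no direction is given for it. Cdx2 was named after its values were seen. The part of epithelial content in the value of Nlrp6 was not tested.

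The adaptor and effector of the inflammasome read higher in the transgenic pool by small amounts. Pycard, the adaptor ASC that nucleates inflammasomes, read 2500 in transgenic tissue and 1978 in wild type, a difference of 0.34 or 1.26-fold, and 7.32% of all genes past the filter lay as high or higher. Its other 2 probe sets read below the filter, between 17.5 and 30.0, and differed by 0.08 and -0.20. Casp1, the protease that matures IL-1β and IL-18, read 1763 against 1524, a difference of 0.21, within the SD between probe sets.

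The other caspases read lower or the same. Casp4, the mouse caspase-11 that binds lipopolysaccharide in the cytosol, read 308 in transgenic tissue and 366 in wild type, a difference of -0.25. Casp8, which serves both apoptosis and inflammatory signalling, read 1270 against 1276, a difference of -0.01. The 4 members of this role therefore split into 2 above 0 and 2 below, and each rests on 1 probe set past the filter.

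The IL-1 family and its receptor had 4 genes past the filter, each with a difference above 0, which in 3 was smaller than the SD between probe sets. Il18, a cytokine made as an inactive precursor by intestinal epithelium, read 2118 in transgenic tissue and 1586 in wild type in its only probe set. The difference of 0.42, or 1.34-fold, was the highest of the members past the filter, and 4.27% of all genes lay as high or higher. Il1b, the precursor of IL-1β from macrophages and neutrophils, read 112 against 108. Il1r1, the signalling receptor of IL-1, read 282 against 252, and Il1rn, the receptor antagonist, 95.6 against 94.1. Another probe set of Il1rn read 88.6 against 70.5, a difference of 0.32, and reached the filter in the transgenic pool only. The other probe set of Il1r1 read 8.1 against 8.6, far below the filter, a difference of -0.08. Il1a, an IL-1 form that cells release on damage, read 55.2 against 57.0, below the filter.

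**Figure D2:**
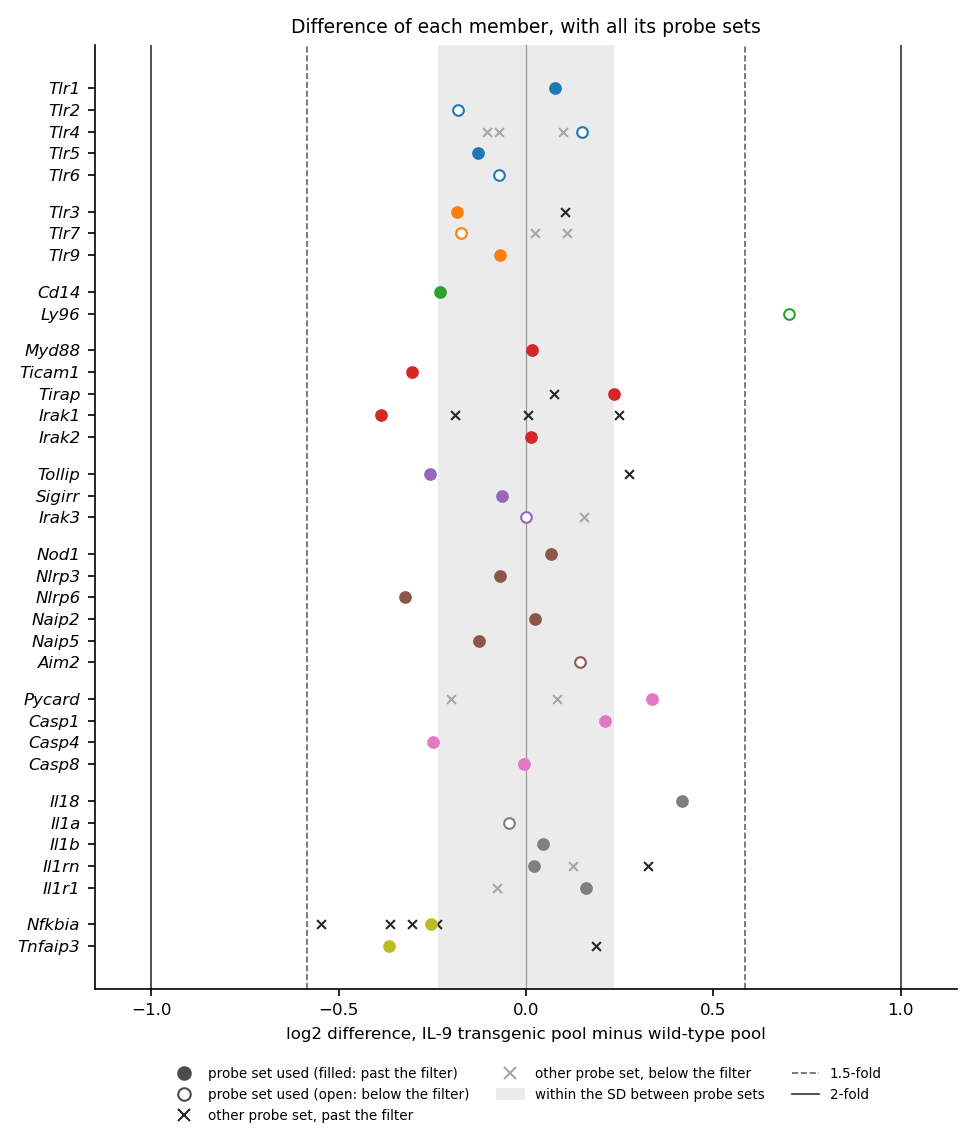
Log2 difference (transgenic pool minus wild-type pool) of each member, in order of role, for the probe set used (circles, filled where past the filter) and for its other probe sets (crosses, black where past the filter). The grey band is the SD between probe sets of 1 gene, 0.23; all filled circles lie inside the 1.5-fold lines, the 5 probe sets of Nfkbia lie on the left of 0, and those of Irak1, Tollip and Tnfaip3 lie on both sides.

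Of the NF-κB inhibitors, Nfkbia read lower in the transgenic pool in every one of its probe sets, and Tnfaip3 did so in its brighter probe set but not in the other. Nfkbia encodes IκBα, which holds NF-κB in the cytoplasm and is itself induced by NF-κB. Its brightest probe set read 3349 in transgenic tissue and 3996 in wild type. The others read 1849 against 2700, 1127 against 1450, 905 against 1066 and 215 against 265. The 5 differences ran from -0.55 to -0.24, with a mean of -0.34, and all 5 were at least as large as the SD between probe sets. The probe sets at -0.55 and -0.36 can match other transcripts, and the rest ran from -0.30 to -0.24. Of 282 genes with at least 5 probe sets above that filter, 13 showed nothing but negative differences, and in 3, Nfkbia included, all were as low as its least low probe set. Probe sets of a gene share the same RNA and arrays and are not replicates, and this comparison was chosen after the values of Nfkbia were seen.

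Tnfaip3 encodes A20, a ubiquitin-editing enzyme that ends NF-κB signalling and is also an NF-κB target. It read 389 in transgenic tissue and 501 in wild type, a difference of -0.37, and 5.86% of all genes past the filter lay as low or lower. Its other probe set read 139 against 122, a difference of 0.19, and the mean of both was -0.09. No direction is therefore given for Tnfaip3.

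Both inhibitors are textbook NF-κB targets, and a promoter of each is shown because it carries a match to the κB consensus, while that of Il18, the member with the highest difference past the filter, is shown beside them as one without a match. Each is the stretch of 250 bases before the RefSeq transcription start (mouse build GRCm38.p6, from C57BL/6J, whereas the mice here were BALB/c), read 5′ to 3′ on the strand of the gene. Capitals mark matches to the 10-base κB consensus, searched on both strands, with overlapping matches joined. The promoter of Nfkbia lies at chr12:55492648-55492897 on the minus strand, that of Tnfaip3, the one furthest upstream of its 2, at chr10:19015411-19015660 on the minus strand, and that of Il18 at chr9:50554450-50554699 on the plus strand.
Nfkbia: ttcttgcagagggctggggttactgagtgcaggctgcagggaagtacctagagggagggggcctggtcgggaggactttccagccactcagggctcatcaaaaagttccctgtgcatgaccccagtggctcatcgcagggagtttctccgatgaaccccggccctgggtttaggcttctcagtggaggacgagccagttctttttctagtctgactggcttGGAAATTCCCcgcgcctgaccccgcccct
Tnfaip3: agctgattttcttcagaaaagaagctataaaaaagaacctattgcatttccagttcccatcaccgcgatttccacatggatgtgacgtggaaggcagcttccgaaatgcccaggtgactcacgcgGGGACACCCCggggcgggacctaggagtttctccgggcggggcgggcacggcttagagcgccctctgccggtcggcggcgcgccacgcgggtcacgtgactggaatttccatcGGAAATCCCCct
Il18: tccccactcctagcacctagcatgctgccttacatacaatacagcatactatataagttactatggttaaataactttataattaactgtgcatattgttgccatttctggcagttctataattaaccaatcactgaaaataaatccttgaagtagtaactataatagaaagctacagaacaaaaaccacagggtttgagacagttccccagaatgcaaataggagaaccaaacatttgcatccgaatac
The other promoter of Tnfaip3 holds no match. The match in Nfkbia begins 29 bases before the start site, and those in Tnfaip3 begin 125 and 12 bases before it. Of the 46 promoters listed for 34 of the 40 members, 11 promoters of 9 genes (Casp4, Il1r1, Irak1, Naip5, Nfkbia, Nlrp3, Tlr2, Tlr3 and Tnfaip3) held a match, which is 23.9%, against 7.25% of all 32851 promoters of the same length. Some of these promoters are alternative starts of the same gene and overlap. A match says only that the letters are present in this window. Whether matches go with the direction of a difference was not tested.

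**Figure D3:**
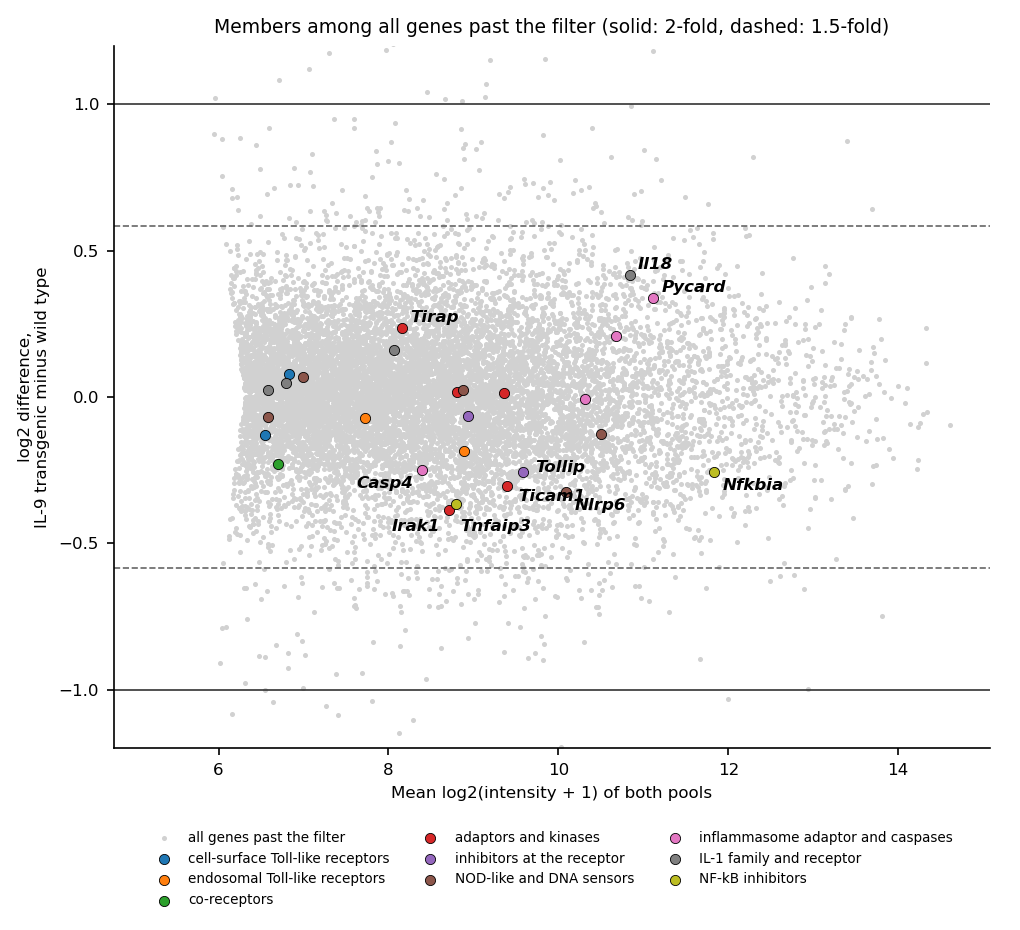
Log2 difference (transgenic minus wild type) against mean log2(intensity + 1) for the 11862 genes past the filter (grey) and the 27 members (coloured by role), with the 10 members past the SD between probe sets named. A total of 73 genes that differed by more than 1.2 are outside the drawn range; the members lie within the grey cloud, the lowest at -0.39 and the highest at 0.42.

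Other genes of these pathways were taken from 7 lists that held 109 gene symbols. The list of other IL-1 family genes held symbols of both the Il1f and the Il36 series, so a gene may stand under an older and a newer name. Of the 109 symbols, 92 were named on the array and 68 passed the filter. Of the 68, 0 were higher and 0 were lower by 2-fold, where 0.607% and 0.202% of all genes were. At 1.5-fold 1 was higher and 0 were lower, against 1.68% and 1.45% of all genes. At these shares a list of 68 genes would hold few or none past either fold in any case. By the SD between probe sets, 5 were higher and 17 were lower, or 7.35% and 25% of the 68, where 14.8% and 13.8% of all genes were. As the mean over probe sets the counts were 3 and 10 of 58, or 5.17% and 17.2%, against 12.9% and 9.85% of all genes. Their median was -0.03. As with the members, more of the listed genes were lower than higher at this small size, and the lists were chosen with earlier results of these data known.

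The gene past 1.5-fold was Il33, an alarmin of the IL-1 family made by epithelium and stroma and a driver of type 2 immunity. It read 1026 in transgenic tissue and 680 in wild type, a difference of 0.59, in its only probe set. Il18r1, the binding chain of the IL-18 receptor, read 107 against 139, a difference of -0.38, and Il18bp, the soluble inhibitor of IL-18, 153 against 145, a difference of 0.08. Among the list of 6 other IL-1 family genes past the filter, 3 lay above 0 and 3 below, around a median of -0.04, or 0.08 over all 12 named without a filter. The receptor for IL-33, Il1rl1, had no probe set of its own name in the annotation.

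In the list of NF-κB subunits and brakes, 7 of 11 genes past the filter lay below 0 and 4 above, with a median of -0.04. Nfkbie, the inhibitor IκBε, read 139 in transgenic tissue and 191 in wild type, a difference of -0.46, and its other probe set differed by -0.18. Cyld, a deubiquitinase that limits NF-κB, read 488 against 619, a difference of -0.34, though its 4 probe sets ran from -0.34 to 0.04. The subunit gene Rela read 650 against 648, a difference of 0.005. Relb and Nfkb2, 2 other subunit genes, differed by -0.23 and -0.16, and Rel, below the filter, by 0.15. By the SD between probe sets, 4 of the 11 genes were lower and 0 were higher, where 13.8% and 14.8% of all genes were.

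In the list of cytokines and effectors that NF-κB induces, 3 of 11 genes past the filter lay above 0 and 7 below, with a median of -0.20. Tnf, tumour necrosis factor, read 125 in transgenic tissue and 156 in wild type, a difference of -0.32. Nos2, the inducible nitric oxide synthase, read 77.2 against 95.5, a difference of -0.30, and passed the filter through the wild-type pool alone. A total of 4 of the 11, Nos2 included, were lower by the SD between probe sets and 0 were higher, where 13.8% and 14.8% of all genes were. At 1.5-fold the counts were 0 and 0, against 1.45% and 1.68%. Without a filter the median of all 19 genes was 0.00, so the direction of this list rests on the filter.

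In the relay from the receptors to NF-κB, 8 of 17 genes past the filter lay above 0 and 9 below, with a median of -0.02. Peli1, a ubiquitin ligase of the IRAK complex, read 1257 in transgenic tissue and 1860 in wild type, a difference of -0.56. Its 5 probe sets ran from -0.56 to 0.67 with a mean of -0.0003, so no direction is given. Tab2, an adaptor of the kinase TAK1, read 1141 against 1447, a difference of -0.34, and its other probe set differed by -0.09.

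Of 6 genes for cytosolic nucleic acid sensing, 2 lay above 0 and 4 below, with a median of -0.14. Mavs, the mitochondrial adaptor of the RNA helicases, differed by -0.37 and Trim25, a ubiquitin ligase for RIG-I, by -0.29. Both had another probe set on the other side of 0, at 0.09 and 0.05. Of 8 C-type lectins and further sensors past the filter, 4 had differences above 0 and 4 below. The lowest was Pglyrp1, a peptidoglycan recognition protein, which read 464 in transgenic tissue and 600.2 in wild type, a difference of -0.37, and Nlrx1, a mitochondrial NOD-like protein, differed by -0.22.

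Among 9 partners of the inflammasome and of pyroptosis, 5 lay above 0 and 4 below, with a median of 0.08. Gsdmd, the pore-forming gasdermin that caspase-1 and caspase-11 cleave, read 2780 in transgenic tissue and 2894 in wild type, a difference of -0.06. Panx1, a membrane channel for ATP, read 562 against 764, a difference of -0.44. Ninj1, which ruptures the membrane of dying cells, read 766 against 617, a difference of 0.31, and its 4 probe sets all lay above 0. Gsdmd and Il18bp were named after their values were seen.

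**Figure D4:**
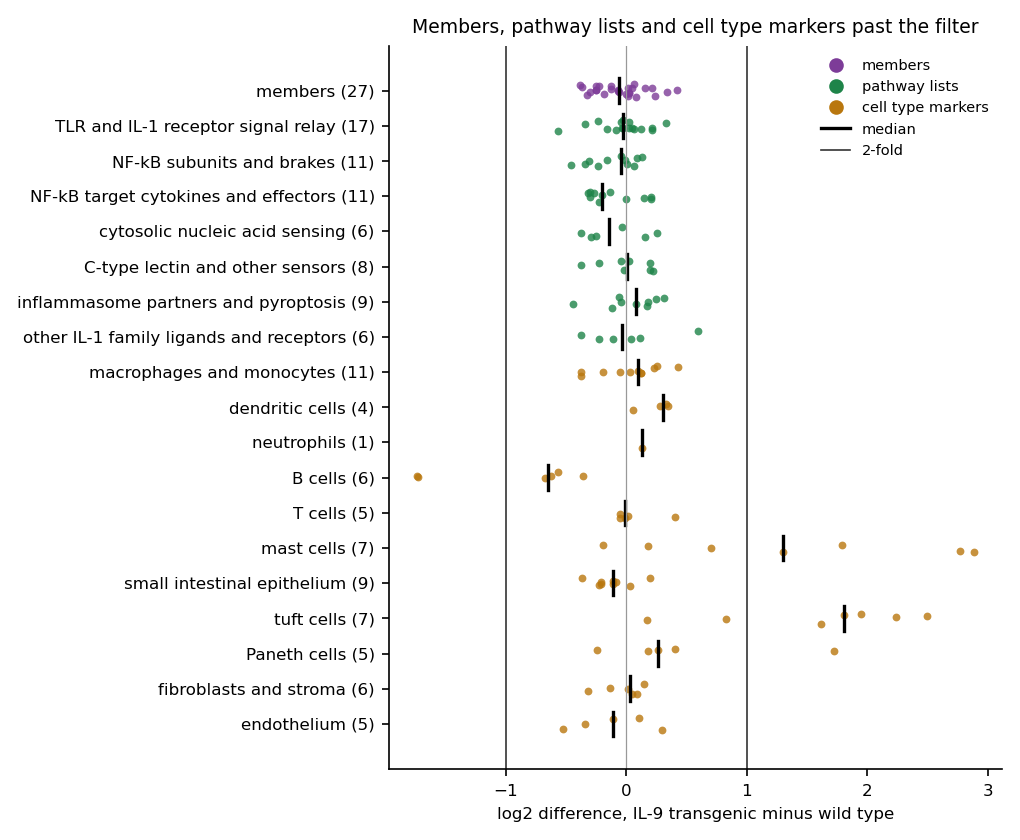
Log2 difference (transgenic minus wild type) of each gene past the filter in the members, the pathway lists and the cell type marker lists, with the number of genes in parentheses, the median of each list as a black bar and 2-fold as solid lines. Members and pathway lists stay inside 2-fold, with medians from -0.20 to 0.08, while the medians of mast cell and tuft cell markers are 1.30 and 1.80 and that of B cell markers is -0.65.

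No member past the filter reached 1.5-fold, whereas markers of several cell types lay past 2-fold. Mast cell markers had a median of 1.30 over 7 genes, with 6 above 0 and 1 below, Hdc at -0.19. A total of 2 of them reached the filter in the transgenic pool only. Without a filter the median of all 9 was 0.71, and their summed intensity was 5786 in transgenic tissue and 1211 in wild type. Without the 4 markers past 2-fold these sums were 533 and 404. Mcpt1, a chymase of mucosal mast cells, read 2586 against 378. Tuft cell markers had a median of 1.80 over all 7 genes listed, with sums of 1980 and 617. Without the 5 past 2-fold the sums were 294 and 202. Of the 7, 4 reached the filter in the transgenic pool only, but none of the 7 was removed by it. Mast cells also express Toll-like receptors, MyD88 and IL-1 family receptors. The part of mast cells, tuft cells and B cells in the members' values was not tested.

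For the other cell types that carry these sensors the lists were nearer 0. Dendritic cell markers had a median of 0.30 over 4 genes, of which 1 reached the filter in the transgenic pool only. The median over all 7 without a filter was 0.09, with sums of 995 in transgenic tissue and 857 in wild type. Itgax differed by 0.33. Of the 7 neutrophil markers named on the array only Elane passed the filter, at 0.13, with sums of 415 and 395. T cell markers had a median of -0.01 (sums of 1207 and 1173), stromal markers 0.03 (7368 and 7534) and endothelial markers -0.11 (729 and 832). Paneth cell markers had a median of 0.27 (61862 and 49967), with 1 of 5 past 2-fold, Ang4, an antimicrobial ribonuclease that read 15190 against 4590, and sums of 46672 and 45377 without it. Ang4 was named after its values were seen. No marker on any list was at 0. The small intestinal epithelium was evident from its markers, among them Fabp2, which read 18917 in transgenic tissue and 20124 in wild type, and Krt8, which read 14562 and 16833.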

How the data were processed

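Total RNA (10 µg) from each pool was amplified, biotin-labelled and put on Affymetrix mouse expression arrays, per the labels' protocols. The deposited values are probe set intensities on a linear scale, and RMA, without a version, is named in the submitters' processing notes. RMA equalises the arrays, so a change common to most genes would not be seen, and background signal shrinks the differences of dim genes. No detection calls were used. Neither genome build nor chip library file is stated in the sources used here.

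Gene names came from GEO's platform annotation, in which 34958 of 45101 probe sets had 1 symbol, 932 several and 9211 none, and all 35 Entrez IDs of the named members matched RefSeq (GRCm38.p6). Where a gene had several probe sets, the brightest by mean log2(intensity + 1) stood for it. Genes entered the analysis when the higher of their 2 log2 values reached 6.31, and calls were made at 2-fold and 1.5-fold, with Python 3.11.15, pandas 2.3.3 and NumPy 2.4.6. The procedure was tested on simulated data. A total of 7 alternatives were tried. The members and lists were chosen with earlier results of these data known. All members could be named. Of each pathway list, those past 1.5-fold or else the 2 furthest from 0 could be named, and of each marker list, genes past 2-fold or the 2 brightest. Others were named after their values were seen. Samples were grouped by the source in their labels.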

Additional observations from a re-analysis of the deposited data

How the results depend on the processing

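The counts of members past 2-fold were 0 in both directions under all 7 alternatives, and so were those past 1.5-fold, except that without an expression filter 1 member was higher, Ly96. Past the SD between probe sets, averaging the probe sets of a gene gave 1 higher and 4 lower in place of 3 and 7, and the other alternatives gave 2 to 4 higher and 5 to 8 lower. The median of the members, -0.06, ran from -0.07 to 0.01 and was above 0 only when probe sets open to cross-matching were left out, where that of all genes was 0.02. Of 244 recomputed differences of single members, 7 moved by the SD or more and 4 changed sign: Tollip (0.01, mean over probe sets), Tlr3 (0.10) and Irak1 (0.01) when such probe sets were left out, and Myd88 (-0.0010, quantile normalization). No paired analysis was possible because each group has 1 array. Signal near background limits what can be said of Tlr2, Tlr4, Tlr6, Tlr7, Ly96, Irak3, Aim2 and Il1a.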
